A study of Mus musculus with 12 samples.

Results

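The genes described here encode the structural subunits of the mitochondrial respiratory chain and of the ATP synthase. Members were every array probe annotated to a single symbol that starts with Ndufa, Ndufb, Ndufc, Ndufs, Ndufv, Uqcr or Atp5, or that is Sdha, Sdhb, Sdhc, Sdhd, Cox5a, Cox5b, Cox6b1, Cox6c, Cox7b, Cox7c or Cycs. The Ndufaf assembly factors and the Cox4i, Cox6a, Cox7a and Cox8 genes, several of which have muscle forms, were left out by that rule. This gave 112 probes for 69 genes, of 19057 genes with a probe of 1 symbol. The filter on detection kept 66 of the 69 among 11754 tested genes, namely 35 of 36 of complex I, 3 of 4 of complex II, 6 of 7 of complex III, cytochrome c, 5 of complex IV and 16 of the ATP synthase. The probes of Ndufs1, Sdha and Uqcrfs1 were not detected on at least 2 arrays and these genes were not tested. Atp5g1, Ndufa4l2 and Cox7c were not analysed here. Ndufs5-ps carries a pseudogene symbol, so its values cannot be assigned to Ndufs5 with certainty.

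Total RNA from fresh frozen mouse tissue was hybridised to 12 single-colour Illumina arrays, from 2 muscles, 2 bone marrows, 4 leiomyosarcomas (a tumour type of smooth muscle) and 4 osteosarcomas (a tumour type that forms bone). All 12 samples carry the genotype p53 flow/flox, spelled so in the labels, and none was treated. The mice were transgenic, had a p53 mutation and were watched for visible tumours or paralysis of the limbs, so the muscle and bone marrow are not from wild-type animals. The labels name no recombinase, promoter, age or sex, and 1 muscle (muscle 1) and 1 bone marrow (bone marrow 2) share an animal code. They do not state that the samples of a group came from separate animals, so the p-values measure the spread between these samples.

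The respiratory chain sits in the inner mitochondrial membrane. Complex I takes electrons from NADH and complex II takes them from succinate, ubiquinone carries them to complex III, cytochrome c carries them to complex IV, and complex IV passes them to oxygen. Complexes I, III and IV pump protons, and the ATP synthase uses the return flow of protons to make ATP. Skeletal muscle fibres are rich in mitochondria. Most subunits are encoded in the nucleus, and a few of the core subunits are encoded in mitochondrial DNA.

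Nuclear respiratory chain genes are known for short promoter elements bound by NRF1, by ETS factors such as GABP, by YY1 and by the oestrogen-related receptors. RefSeq promoter entries (GRCm38.p6, 250 bases before to 50 after a start) were held for 59 of the 69 genes. Both strands were searched for CGCATGCG (NRF1), CCGGAAG (ETS), AAGATGGC (YY1) and TNAAGGTCA (oestrogen-related receptors, ERR), of which CGCATGCG is its own reverse complement. CGCATGCG was in 9 of the 59 genes (15.3%) and in 2.07% of the 27025 genes with an entry. CCGGAAG was in 15 (25.4%) against 9.93%, AAGATGGC in 10 (16.9%) against 3.19%, and TNAAGGTCA in 3 (5.08%) against 1.43%. In all, 31 of the 59 held at least 1 of the 4 motifs and 5 held 2 or more. A match shows only that the letters are present in the window. The 4 spellings were settled on after several had been searched, so these shares are descriptions with no test. The promoters of 4 members are printed 5′ to 3′ on the gene's strand, with matches in capitals. For a gene with several entries, the entry with matches to the most motifs was taken. They show paired ETS matches in a gene with one of the largest differences (Ndufs3, chr2:90904672-90904971, minus strand), an NRF1 match after the start (Uqcrc1, chr9:108936398-108936697, plus strand), an NRF1 match before it (Cycs, chr6:50566520-50566819, minus strand) and matches to 3 motifs together (Atp5j, chr16:84834927-84835226, minus strand).
Ndufs3: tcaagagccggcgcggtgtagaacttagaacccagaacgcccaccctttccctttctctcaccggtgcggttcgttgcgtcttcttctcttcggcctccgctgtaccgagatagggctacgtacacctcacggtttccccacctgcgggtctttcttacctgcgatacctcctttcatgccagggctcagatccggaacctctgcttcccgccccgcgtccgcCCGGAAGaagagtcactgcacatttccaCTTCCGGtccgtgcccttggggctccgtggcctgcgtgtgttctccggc
Uqcrc1: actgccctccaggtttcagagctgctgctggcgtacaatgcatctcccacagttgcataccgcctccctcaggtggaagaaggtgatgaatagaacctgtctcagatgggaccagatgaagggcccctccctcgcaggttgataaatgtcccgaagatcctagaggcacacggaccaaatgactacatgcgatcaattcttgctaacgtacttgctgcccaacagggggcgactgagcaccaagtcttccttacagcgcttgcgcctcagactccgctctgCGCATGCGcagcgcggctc
Cycs: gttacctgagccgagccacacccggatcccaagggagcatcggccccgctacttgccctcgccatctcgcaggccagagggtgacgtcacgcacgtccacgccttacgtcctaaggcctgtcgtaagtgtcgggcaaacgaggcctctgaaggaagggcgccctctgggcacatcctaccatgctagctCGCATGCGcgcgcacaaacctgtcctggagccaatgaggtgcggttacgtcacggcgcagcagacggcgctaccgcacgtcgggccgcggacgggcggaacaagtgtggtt
Atp5j: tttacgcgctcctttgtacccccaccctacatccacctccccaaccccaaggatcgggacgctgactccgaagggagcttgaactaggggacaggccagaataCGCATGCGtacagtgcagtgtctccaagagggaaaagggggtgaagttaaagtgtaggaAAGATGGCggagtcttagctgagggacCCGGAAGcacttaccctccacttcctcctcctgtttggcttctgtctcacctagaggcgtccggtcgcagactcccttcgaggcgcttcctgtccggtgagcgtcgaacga

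Counted from the start site, the first base of the 2 ETS matches in Ndufs3 lay at -27 and, on the other strand, at 2. The NRF1 match began at 32 in Uqcrc1 and at -61 in Cycs. In Atp5j the NRF1, YY1 and ETS matches began at -147, -88 and -61.

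Values are log2 of the normalised signal, so a difference of 1 is a doubling, and each gene is read from its brightest detected probe. A gene was called when its adjusted p was under 0.05 and its difference was at least 1 on the log2 scale. Every adjusted p in the text is from limma, with Benjamini-Hochberg adjustment over all 11754 genes. Between 14169 and 18100 of the 45281 probes were detected per array (31.3 to 40.0%), and the array's background constant was 80.75 to 84.17 in the muscles, bone marrows and leiomyosarcomas 1 and 2, and 99.32 to 110.11 in leiomyosarcomas 3 and 4 and the osteosarcomas. The labels were checked against marker genes. All 10 neutrophil markers were detected on both bone marrows, and the summed level of the 7 osteoblast markers was 51364 to 71539 in the osteosarcomas against at most 3103 elsewhere. Of 9 tested smooth muscle markers, 5 were detected on all 4 leiomyosarcomas, with a summed level over the 9 of 5640 to 24091. The same sum was 30128 to 42550 in the muscles, 3276 to 4095 in the bone marrows and 6585 to 37561 in the osteosarcomas. These markers thus did not set the leiomyosarcomas apart. Cnn1, Myh11 and Synpo2, which define contractile smooth muscle, were detected on no leiomyosarcoma. In tissue samples, fewer cells of a type and less RNA per cell cannot be told apart.

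The highest levels of nearly all members were in muscle. Both muscles lay above all 10 other arrays for 56 of the 66 members (84.8%), against 16.5% of all tested genes. The exceptions were Atp5b, Atp5d, Atp5g2, Atp5g3, Atp5l, Cox6c, Ndufa4, Ndufb11, Ndufc2 and Uqcrq. The median deviation from each member's mean over the arrays was 1.61 in muscle 1 and 0.91 in muscle 2. It was -0.50 and -0.46 in the bone marrows, -0.52 to -0.31 in the leiomyosarcomas and -0.24 to 0.20 in the osteosarcomas.

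**Figure D1:**
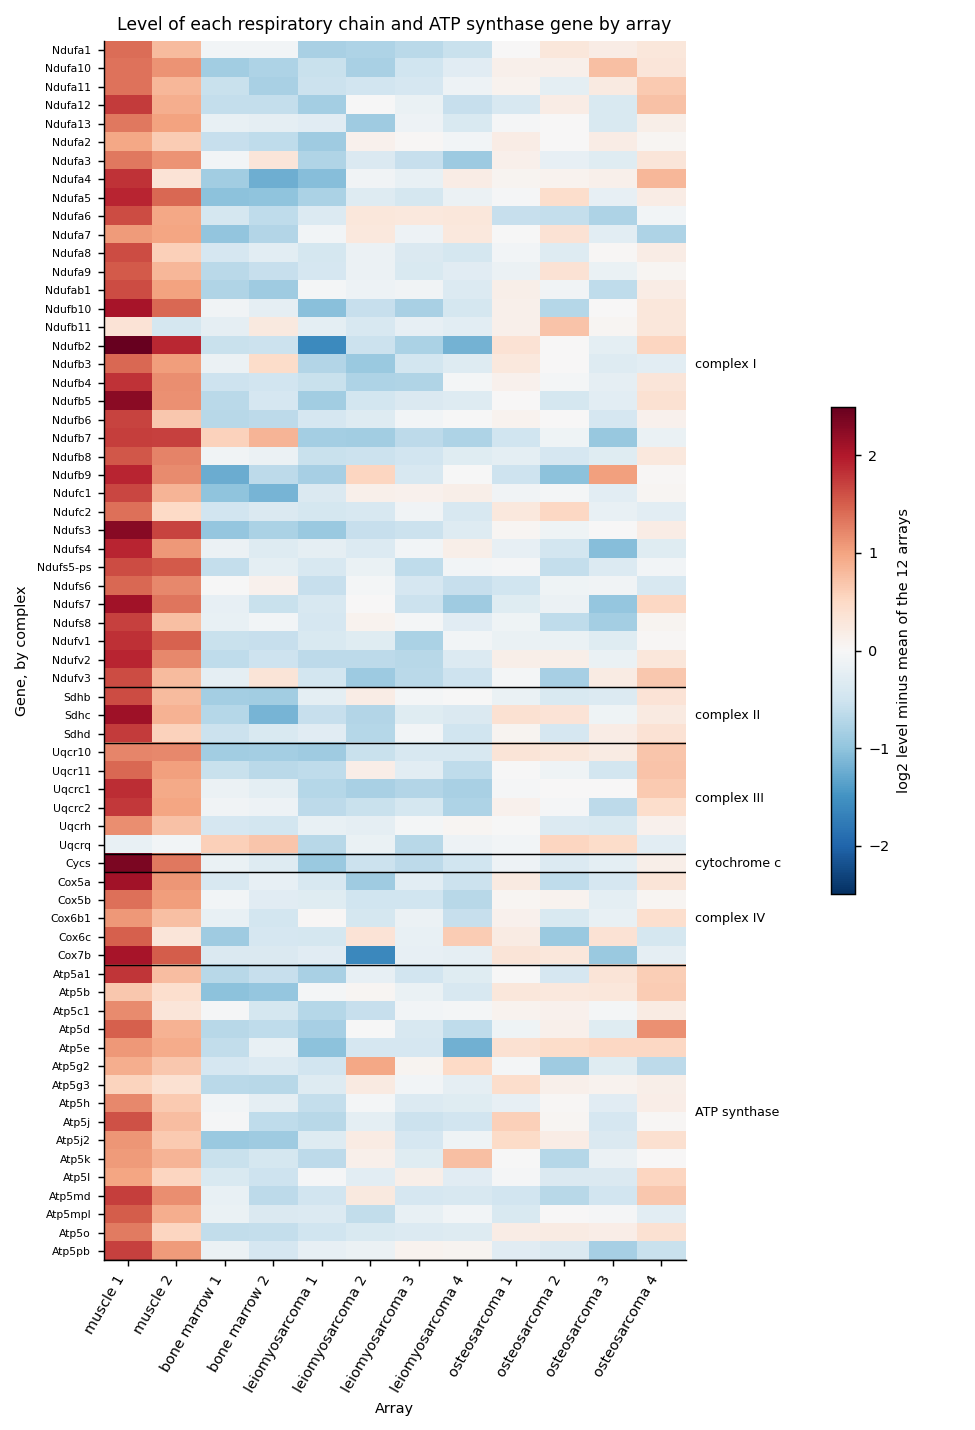
Log2 level of each of the 66 tested genes (rows, by complex) on each of the 12 arrays (columns), as the difference from the gene's mean over all arrays, red above and blue below. Both muscle columns are red for nearly every gene, with muscle 1 the higher of the 2 in 65 of 66 genes, while Ndufb11 and Uqcrq do not follow.

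The leiomyosarcomas were first compared with muscle. By sign alone, with no test, all 66 members were lower in the leiomyosarcomas, against 46.9% of all genes. Of the 66, 57 (86.4%) were called lower, against 15.1% of all tested genes. None was called higher by limma, against 20.1%, and none was higher at an unadjusted p under 0.05, against 29%. The median difference over members was -1.63, a level 3.10 times lower, while the median over all genes was 0.08. The 57 included 33 of 35 in complex I (median -1.72), 3 of 3 in complex II (-1.55), 5 of 6 in complex III (-1.67), cytochrome c (-2.50), 4 of 5 in complex IV (-1.71) and 11 of 16 in the ATP synthase (-1.27). Without muscle 1 the count was 41 (62.1%, against 15.2% of all tested genes), and without muscle 2 it was 58.

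Complex I held the largest falls. Ndufb2, an accessory subunit of the membrane arm, read 10.21 and 9.49 in the muscles and 6.01, 7.07, 6.81 and 6.42 in the leiomyosarcomas. The groups did not overlap, and the difference was -3.28 ± 0.33 (SE, adjusted p = 1.38e-05), 9.68 times lower. Ndufs3, a core subunit of the peripheral arm, had 12.27 and 11.69 in the muscles and 9.07, 9.41, 9.46 and 9.68 in the leiomyosarcomas. Every leiomyosarcoma lay well below both muscles, a difference of -2.57 ± 0.23 (adjusted p = 6.44e-06). Ndufb7, another accessory subunit of the membrane arm, was at 10.17 and 10.15 in muscle and at 7.58, 7.57, 7.79 and 7.66 in the tumours (-2.51 ± 0.24, adjusted p = 1.02e-05). The tumours were close to each other for this gene, and so were the muscles. Ndufv1, the flavin-binding core subunit at which NADH is oxidised, was lower by -2.04 ± 0.22. Ndufab1, the mitochondrial acyl carrier protein, differed by -1.47. Ndufa4, now counted with complex IV by many authors, differed by -1.36. The smallest complex I difference was -0.23 for Ndufb11, whose probe was detected in 3 of 4 osteosarcomas but in no muscle, bone marrow or leiomyosarcoma, so no fold is given.

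In complex II, which is also succinate dehydrogenase of the citric acid cycle, the membrane anchor Sdhc read 12.91 and 11.66 in muscle and 10.21, 10.06, 10.49 and 10.44 in the leiomyosarcomas (-1.99 ± 0.32, adjusted p = 0.000339). The other anchor Sdhd (-1.55) and the iron-sulphur subunit Sdhb (-1.24) were called lower too. In complex III, the core protein Uqcrc1 was at 12.62 and 11.73 in muscle and at 10.07, 9.96, 10.04 and 9.96 in the leiomyosarcomas. The 4 tumours spanned a narrow range below both muscles, and the difference was -2.17 ± 0.27 (adjusted p = 6.08e-05). The second core protein Uqcrc2 differed by -1.98. Uqcrq, the exception in complex III, differed by -0.29 and was not called.

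Cycs, the somatic cytochrome c that ferries electrons to complex IV, read 13.19 and 12.15 in muscle and 9.89, 10.29, 10.18 and 10.32 in the leiomyosarcomas. The difference was -2.50 ± 0.28 (adjusted p = 2.79e-05), with no overlap. In complex IV, Cox7b read 9.88 and 9.33 in muscle and 7.53, 6.21, 7.60 and 7.59 in the leiomyosarcomas (-2.37 ± 0.44, adjusted p = 0.000946). Leiomyosarcoma 2 was the lowest of the 4 by a wide gap. Cox5a (-2.13) and Cox5b (-1.71), which lie on the mitochondrial matrix side of complex IV, were called lower, and Cox6c (-0.82) was not called.

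The median difference was smallest in the ATP synthase. Its catalytic beta subunit, Atp5b, had 15.72 and 15.48 in muscle and 15.00, 15.11, 14.89 and 14.66 in the leiomyosarcomas. The groups did not overlap, but the difference of -0.69 ± 0.20 (adjusted p = 0.0146) was under the minimum of 1. The alpha subunit Atp5a1 differed by -1.72 and was called. Atp5o, which links the catalytic head to the stator, differed by -1.29 and was called. Atp5g2 and Atp5g3, which encode the same mature subunit c of the membrane ring, differed by -0.53 and -0.58 and were not called. The largest fall in this complex was in Atp5e, the epsilon subunit of the central stalk (-1.78 ± 0.26, adjusted p = 0.000168).

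**Figure D2:**
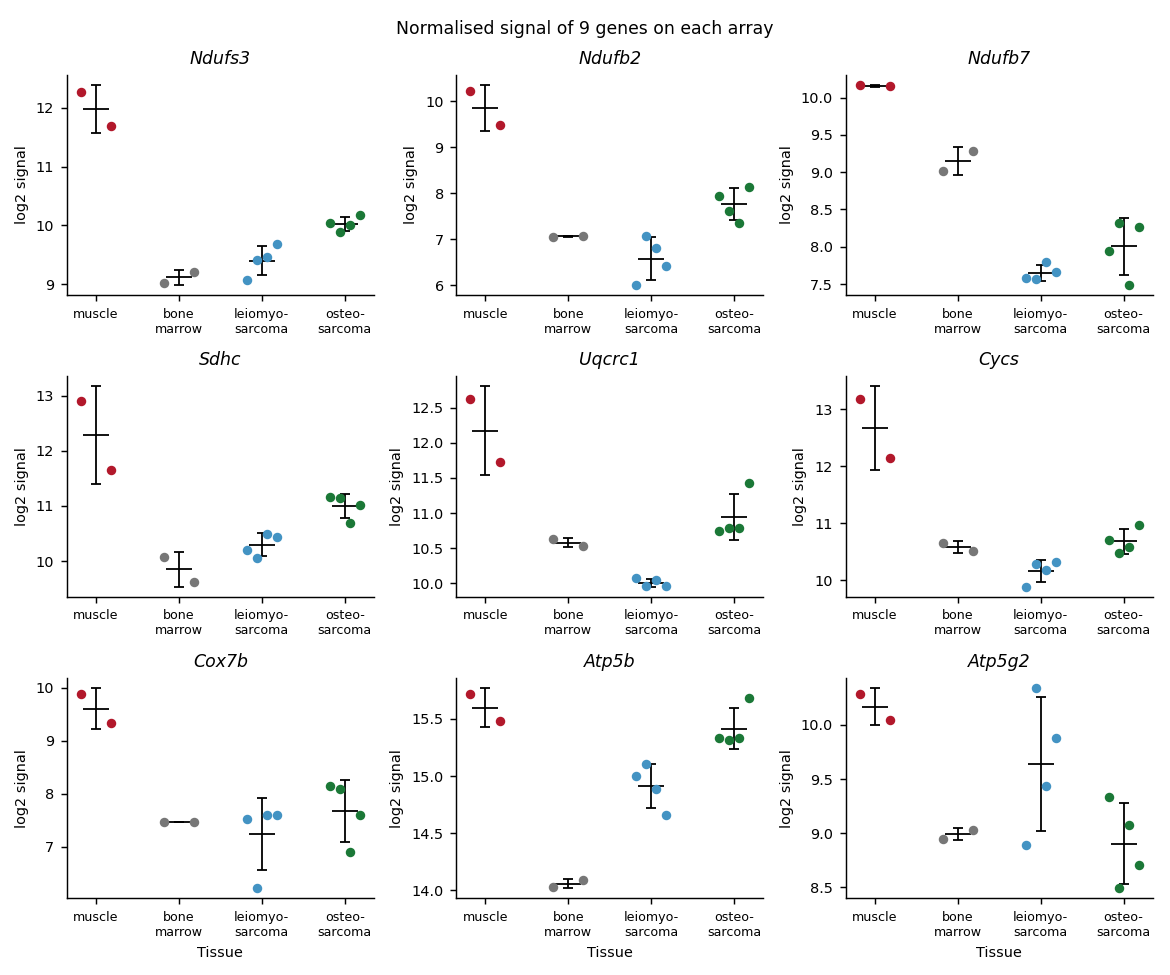
Normalised log2 signal of 9 genes on every array (points), with the group mean (horizontal mark) and SD (bars) for 2 muscles, 2 bone marrows, 4 leiomyosarcomas and 4 osteosarcomas. For Ndufs3 and Cycs both muscles are above all other arrays, Atp5b is at 15.32 to 15.68 in the osteosarcomas beside 15.48 and 15.72 in muscle, and Ndufb7 is higher in bone marrow than in any tumour.

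The osteosarcomas were also compared with muscle, as the common high tissue. Of the 66 members, 47 (71.2%) were called lower, against 14.5% of all tested genes, and none was called higher, against 18.5%, nor at an unadjusted p under 0.05, against 27.3%. The median difference was -1.23. The count was 28 of 35 in complex I, 3 of 3 in complex II, 4 of 6 in complex III, 3 of 5 in complex IV and 8 of 16 in the ATP synthase, and cytochrome c was among them (-1.99 ± 0.28, adjusted p = 0.000155). The largest falls were Ndufb7 (-2.15), Ndufb2 (-2.09) and Ndufs4 (4.01 times lower), an accessory subunit of the peripheral arm in which mutations cause Leigh syndrome in humans. In the ATP synthase the largest was Atp5pb, the b subunit of the stator (-1.89), and the smallest was Atp5b (-0.18, not called). Without muscle 1, 29 members (43.9%) were called lower, against 14.7% of all tested genes, and without muscle 2, 56 were. With the 2 ranges of array background as a block, 34 (51.5%) were called lower, and the share of all tested genes went from 14.5% to 10.1%. Both muscles had low background and all osteosarcomas high, so the block cannot separate background from tissue in this comparison.

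Fibre markers of skeletal muscle differed widely among the osteosarcoma arrays. The summed level of 19 markers was 548572 and 589292 in the muscles, 676 to 3231 in the leiomyosarcomas, and 148062, 727, 6189 and 15260 in osteosarcomas 1 to 4. Osteosarcoma 1 thus had far more of these transcripts than osteosarcoma 2, and their part in the results was not tested beyond leaving arrays out. Without osteosarcoma 1, 46 members were called lower than muscle, against 1693 of all 11754 tested genes. With osteosarcoma 2 alone standing for the osteosarcomas, the median over members was -1.36. No count is given for that run, since 1 array has no spread of its own.

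The 2 normal tissues were compared with each other. Of the 66 members, 63 (95.5%) were called lower in bone marrow than in muscle, against 19.7% of all tested genes, with a median of -1.70. None was called higher, against 20.3%, and 1 was higher at an unadjusted p under 0.05, against 25.9%. The largest falls were in Ndufs3 (-2.86 ± 0.26, adjusted p = 4.77e-06), Ndufb2 (-2.79) and Ndufa5 (-2.68), an accessory subunit of the peripheral arm. Bone marrow read 9.03 and 9.21 for Ndufs3, below both muscles and overlapping the leiomyosarcomas. All 16 ATP synthase members were lower and 15 were called, the other being Atp5c1, the gamma subunit of the central stalk (-0.98). Ndufb11 (0.06) and Uqcrq (0.77) were the 2 members with a higher value in bone marrow, and neither was called.

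Against bone marrow, the leiomyosarcomas showed few called differences. Here 1 member was called higher and 2 lower, against 15.2% and 12.7% of all tested genes, both member shares (1.52% and 3.03%) lying below the background. Without the minimum on size, 5 were higher and 5 lower (7.58% each), against 18.9% and 17.7%. The median was 0.10 over members and 0.00 over all genes, and with median scaling the members' median was -0.06. The member called higher was Ndufc1, a small membrane subunit of complex I, with 11.35 and 11.19 in bone marrow and 11.99, 12.48, 12.47 and 12.51 in the leiomyosarcomas (1.09 ± 0.25, adjusted p = 0.00505). The call was lost with the background block (0.96), where it was under the minimum of 1. Ndufb7 was lower in the leiomyosarcomas by -1.50 ± 0.24 (adjusted p = 0.000446), its bone marrow values of 9.02 and 9.28 lying above every tumour. Uqcrq was lower by -1.06 ± 0.27 (adjusted p = 0.0101), with bone marrow at 7.38 and 7.47 and the leiomyosarcomas at 6.08 to 6.65. A second probe of Uqcrq was detected on 1 array and differed by -0.16. The count called higher was 0 without bone marrow 2 and 2 without leiomyosarcoma 3, and the count called lower was 1 without bone marrow 2, leiomyosarcoma 1 or leiomyosarcoma 3.

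The osteosarcomas lay above bone marrow for more members. Of 66, 7 (10.6%) were called higher and 1 (1.52%) lower, against 14.8% and 13% of all tested genes, so the called shares were not above the background. Without the minimum on size, 16 (24.2%) were higher and 1 lower, against 18.6% and 18.5%. By sign alone, with no test, 55 of 66 (83.3%) were higher in the osteosarcomas, against 51.3% of all genes. All 4 osteosarcomas lay above both bone marrows for 31 members (47%), against 29.2% of all genes. The median over members was 0.40 and over all genes 0.03.

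The largest of the 7 was Atp5b, at 14.03 and 14.09 in bone marrow and 15.33, 15.32, 15.33 and 15.68 in the osteosarcomas. Its groups did not overlap and the difference was 1.35 ± 0.20 (adjusted p = 0.000234), 2.56 times higher. Ndufa4 was at 11.11 and 10.75 in bone marrow and 12.04, 12.05, 12.09 and 12.80 in the osteosarcomas (1.31 ± 0.42, adjusted p = 0.0299). Uqcr10, a small subunit of complex III, read 12.28 and 12.30 in bone marrow and 13.47, 13.43, 13.34 and 13.83 in the osteosarcomas (1.23 ± 0.21, adjusted p = 0.000709). The other 4 were Sdhc (1.15), Ndufa10 (1.14), Ndufa5 (1.11) and Atp5j2 (1.07), a membrane subunit of the ATP synthase. Ndufb7 was the 1 member called lower (-1.15 ± 0.24, adjusted p = 0.00287), at 7.94, 8.32, 7.49 and 8.27 in the osteosarcomas. With array background as a block, only Atp5b (1.63) of the 7 and Ndufb7 (-1.30) stayed past the threshold, and with median scaling 1 was called higher and 1 lower. All osteosarcomas had high background and both bone marrows low. The block therefore rests on the leiomyosarcomas and cannot separate background from tissue here. None was called lower without osteosarcoma 3. With osteosarcoma 2 alone, the median over members was 0.26.

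**Figure D3:**
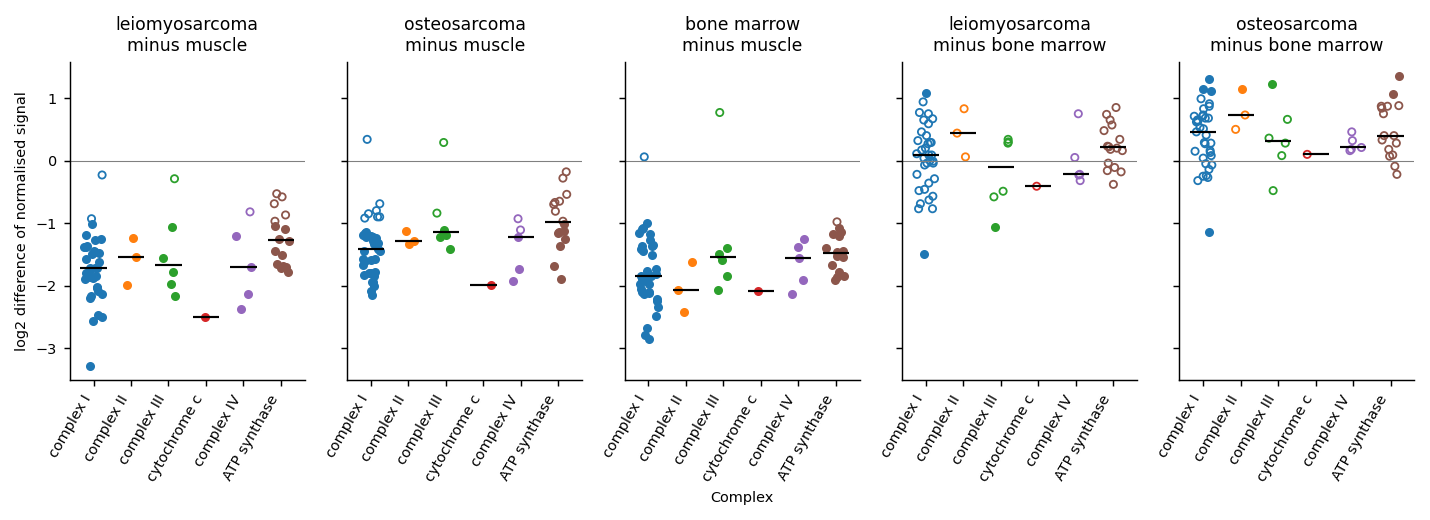
Log2 difference of each gene (points) by complex in 5 comparisons, filled where called and open where not, with black lines at the median of each complex. In the 3 comparisons with muscle most points lie below -1, and against bone marrow they lie around 0 for the leiomyosarcomas and mostly above 0 for the osteosarcomas.

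The study has a normal tissue beside each tumour, and the difference between the 2 tumour-minus-normal differences was tested directly. Leiomyosarcoma minus muscle was compared with osteosarcoma minus bone marrow, which share no array. The first was lower than the second for 60 of 66 members (90.9%), against 19.5% of all tested genes, and higher for none, against 20.8%, nor at an unadjusted p under 0.05, against 25.5%. The median of this difference was -2.05. It was largest for Ndufb2 (-3.98 ± 0.46, adjusted p = 3.8e-05), Ndufs3 (-3.48 ± 0.32, adjusted p = 7.78e-06) and Ndufa5 (-3.20 ± 0.35, adjusted p = 2.54e-05). Ndufs3 was at 9.40 ± 0.25 (SD, n = 4) in the leiomyosarcomas and 10.03 ± 0.12 (n = 4) in the osteosarcomas, while muscle had 11.98 ± 0.41 (n = 2) and bone marrow 9.12 ± 0.12 (n = 2). The normal tissues were further apart for this gene than the tumours. The 6 members not called were Atp5g2, Atp5k, Cox6c, Ndufb11, Ndufs8 and Uqcrq. By arithmetic, the difference tested here equals bone marrow minus muscle, less osteosarcoma minus leiomyosarcoma. It is therefore not independent of the bone marrow comparison above, where 63 of 66 members were called lower than muscle (median -1.70).

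**Figure D4:**
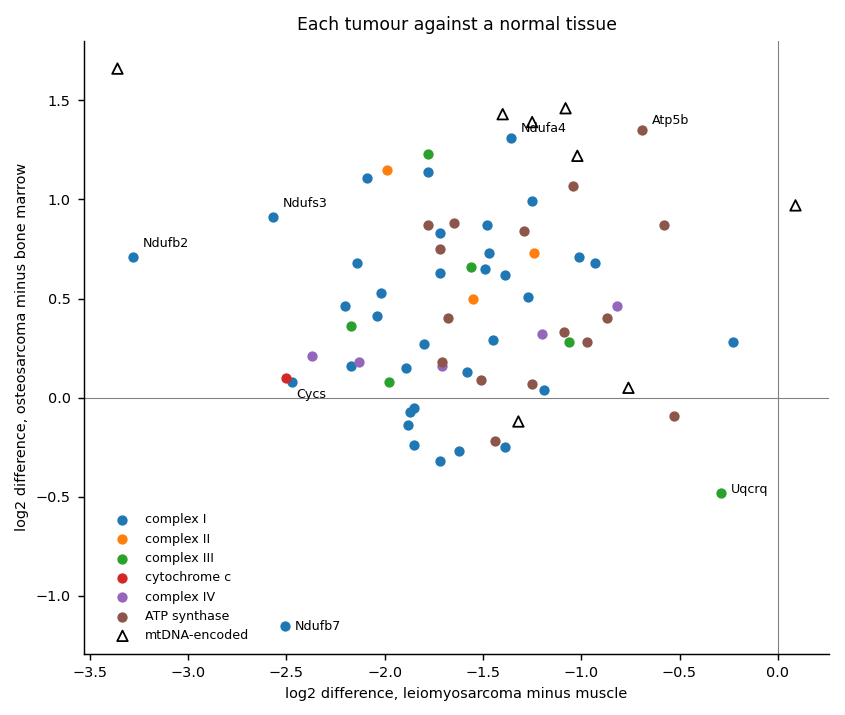
Each of the 66 genes by its log2 difference between leiomyosarcoma and muscle (horizontal axis) and between osteosarcoma and bone marrow (vertical axis), coloured by complex, with 8 mtDNA-encoded genes as open triangles. All 66 lie left of 0, 55 lie above 0, and Ndufb7 stands apart at -2.51 and -1.15.

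The 2 tumours were then compared with each other, a comparison that uses neither normal tissue. Of 66 members, 2 (3.03%) were called higher in the osteosarcomas and none lower, against 3.31% and 4.34% of all tested genes, so the called share was near the background. Without the minimum on size, 9 (13.6%) were higher and none lower, against 5.35% and 6.8%. At an unadjusted p under 0.05, 23 were higher and 3 lower, against 12.5% and 14.1% of all tested genes. By sign alone, with no test, 55 of 66 (83.3%) were higher in the osteosarcomas, against 50.6% of all genes. The median was 0.41 over members and 0.01 over all genes, and by complex it ran from 0.32 in the ATP synthase to 0.58 in complex III.

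Atp5e read 7.41, 8.02, 8.02 and 7.24 in the leiomyosarcomas and 8.82, 8.90, 8.97 and 8.97 in the osteosarcomas. All 4 osteosarcomas were above all 4 leiomyosarcomas, by 1.24 ± 0.21 (adjusted p = 0.0032) or 2.37 times. Ndufb2 was at 7.95, 7.61, 7.35 and 8.14 in the osteosarcomas, above each leiomyosarcoma, by 1.19 ± 0.27 (adjusted p = 0.0152). The other 7 past the adjusted p alone were Uqcr10 (0.93), Uqcrc1 (0.93), Ndufa1 (0.90), Ndufa10 (0.87), Ndufv2 (0.69), Ndufs3 (0.63) and Atp5o (0.62). A second probe detected on all 12 arrays gave -0.19 for Atp5o, the opposite sign, and 0.56 for Uqcr10. The osteosarcomas lay wholly above the leiomyosarcomas for 15 members (22.7%), against 8.13% of all genes. The leiomyosarcomas lay wholly above for 1 member (1.52%), Atp5pb, against 9.55%. Its difference of -0.46 was not called (adjusted p = 0.155). Other probes of Atp5pb differed by -0.31 and 0.19 (both detected on all 12 arrays) and 0.43 (6 arrays), so their directions disagree. Within the high-background arrays, which hold leiomyosarcomas 3 and 4 and all osteosarcomas, Atp5e differed by 1.29 (adjusted p = 0.0378) and Ndufb2 by 1.15 (adjusted p = 0.069). With osteosarcoma 2 alone as the osteosarcoma, Atp5e differed by 1.23 and Ndufb2 by 1.03, and 1 array cannot show whether either call holds. Without leiomyosarcoma 1, 1 member was called.

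**Figure D5:**
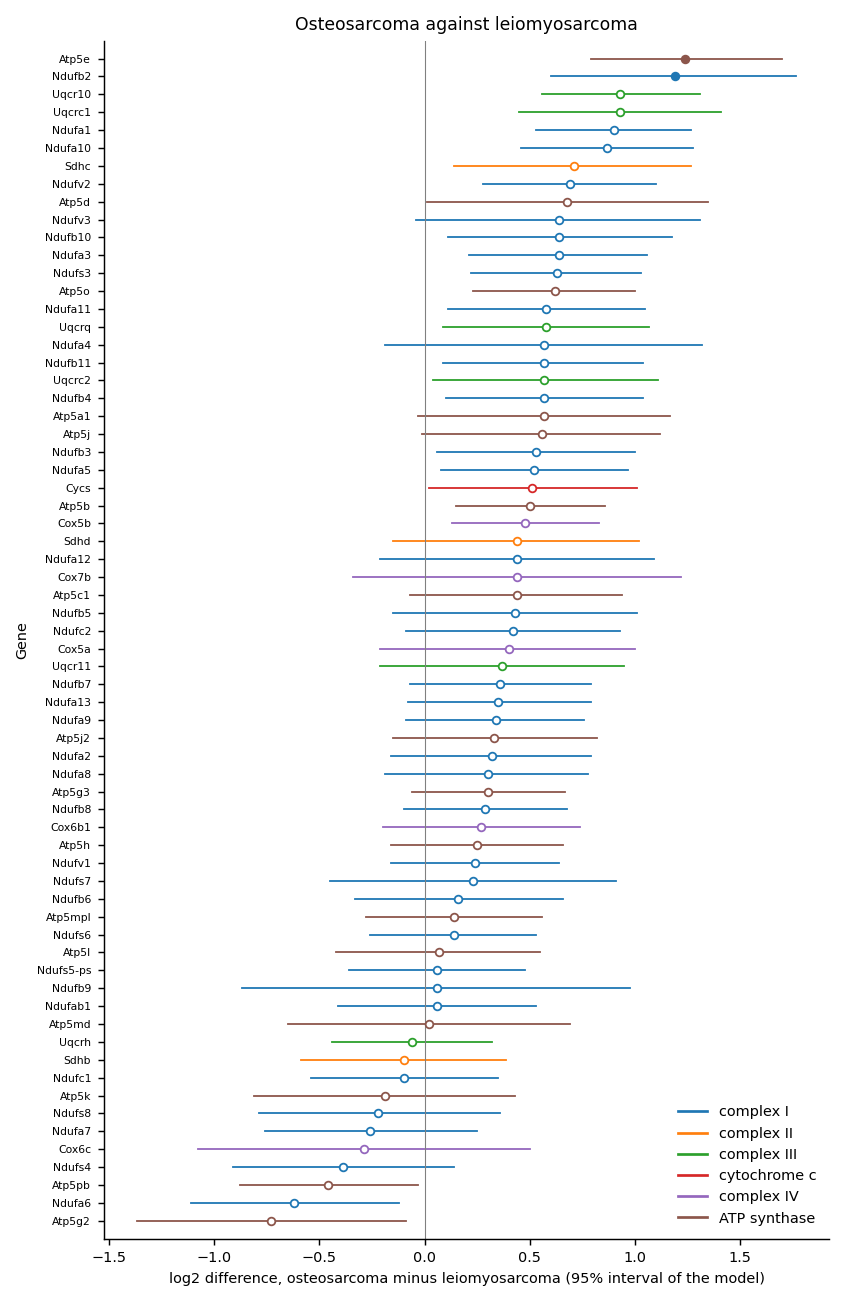
Log2 difference between osteosarcoma and leiomyosarcoma for each of the 66 genes (4 arrays a group), ordered by size, with the 95% interval of the model, coloured by complex and filled where called. Atp5e (1.24) and Ndufb2 (1.19) are filled at the top, 55 points lie above 0, and Atp5g2 is lowest at -0.73.

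Of the genes encoding subunit c of the ATP synthase ring, Atp5g2 and Atp5g3 make the same mature protein with different import sequences. Their log2 ratio, Atp5g2 minus Atp5g3, was set against its mean in muscle so that the probes' own brightness does not enter. It was 0.04 and -0.04 in the muscles and -0.08 and 0.03 in the bone marrows. It was -0.48, 0.43, -0.18 and 0.42 in the leiomyosarcomas and -0.79, -1.33, -0.69 and -1.12 in the osteosarcomas. All 4 osteosarcomas had a lower share of Atp5g2 than any other array, and their mean was -0.98 ± 0.30 (SD, n = 4) against 0.05 ± 0.45 (n = 4) in the leiomyosarcomas. The difference of -1.03 had p = 0.0286 in a two-sided exact permutation test, the smallest value that 70 arrangements allow, and this was the 1 ratio tested. Atp5g2 itself was at 9.33, 8.49, 9.08 and 8.71 in the osteosarcomas and 8.89, 10.34, 9.44 and 9.88 in the leiomyosarcomas, ranges that overlap (-0.73, adjusted p = 0.132). Atp5g3 differed by 0.30 and was not called.

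Levels also differed among arrays of 1 group. Muscle 1 was above muscle 2 for 65 of 66 members, by a median of 0.61, while 49.8% of all genes were higher in muscle 1. The summed level of 9 fast fibre markers was nearly the same in the muscles, 317807 and 318625, and that of 7 slow and oxidative fibre markers was lower in muscle 1 (34425) than in muscle 2 (89060). The part of fibre type in this difference was not tested. Osteosarcoma 4 was the highest of the 4 osteosarcomas for 42 members (63.6%), against 26% of all genes. Osteosarcoma 3 was the highest for 5 (7.58%), against 24.5%. Leiomyosarcoma 1 was the highest of the 4 leiomyosarcomas for 5 members (7.58%), against 26.3% of all genes. The median SD of the members was 0.43 in muscle, 0.10 in bone marrow, 0.24 in the leiomyosarcomas and 0.32 in the osteosarcomas, against 0.27, 0.15, 0.29 and 0.31 over all genes.

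Other probes of the same genes were examined where they were detected. Of 32 such probes, 30 had the same sign as the one used for leiomyosarcoma against muscle, 28 for osteosarcoma against muscle, 30 for bone marrow against muscle and 21 for osteosarcoma against leiomyosarcoma. Of the 23 detected on all 12 arrays, the numbers were 23, 23, 23 and 17. For Cycs, the 2 other probes gave -1.72 and -2.35 in the leiomyosarcomas relative to muscle, beside -2.50.

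Members with and without a promoter motif were set side by side. Relative to muscle, the 15 tested members with CCGGAAG had a median of -1.39 in the leiomyosarcomas and the 42 without it -1.72. With CGCATGCG the median was -1.48 (9 members) and without it -1.68 (48). With AAGATGGC it was -1.65 (10) and without it -1.58 (47). These medians are descriptions, with no test.

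The subunits encoded in mitochondrial DNA are partners of the nuclear members in the same complexes. Of 8 tested, 6 (75%) were called lower in the leiomyosarcomas than in muscle (median -1.17), against 15.1% of all tested genes. In the osteosarcomas 1 (12.5%) was called lower than in muscle (-0.72), near the 14.5% of all tested genes. Bone marrow had 5 (62.5%) lower than muscle (-1.98), against 19.7%. Another comparison, osteosarcoma against bone marrow, had 5 (62.5%) called higher (1.31), against 14.8%. ND4L, a membrane subunit of complex I, read 11.23 and 9.92 in the muscles. The bone marrows had 6.21 and 6.60. It was at 6.88, 8.16, 6.93 and 6.89 in the leiomyosarcomas and 8.21, 7.61, 8.67 and 7.78 in the osteosarcomas. Both muscles lay above all other arrays, and its difference between leiomyosarcoma and muscle was -3.36 ± 0.45 (adjusted p = 0.000106). ATP6, the proton channel subunit of the ATP synthase, differed by -1.25 between leiomyosarcoma and muscle and by 1.39 between osteosarcoma and bone marrow, and COX2, the copper-binding subunit of complex IV, by -1.40 and 1.43. CYTB of complex III, at 15.41 and 15.54 in muscle and 15.45 to 15.63 in the leiomyosarcomas, differed by 0.09. None of the 8 was called between the tumours, with a median of 0.41, against 3.31% of all tested genes called higher and 4.34% lower.

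Genes that build the complexes had smaller median differences from muscle than the subunits. Of 34 tested assembly factors, 17 were called lower in the leiomyosarcomas than in muscle (median -0.96), 12 in the osteosarcomas (-0.86) and 18 in bone marrow (-1.08). These were 50%, 35.3% and 52.9%, against 15.1%, 14.5% and 19.7% of all tested genes. None was called higher in any of these, against 20.1%, 18.5% and 20.3%. Ecsit, a complex I assembly factor, fell by 3.10 on the log2 scale and Uqcc1, a complex III assembly factor, fell by 2.83 on the log2 scale in the leiomyosarcomas. Both were higher in the osteosarcomas than in the leiomyosarcomas, by 1.36 (adjusted p = 0.00437) and 1.09 (adjusted p = 0.00343). They were the 2 assembly factors called there (5.88%, against 3.31% of all tested genes called higher). Of 73 tested mitochondrial ribosome genes, 28 (38.4%) were lower and 1 higher in the leiomyosarcomas than in muscle (median -0.73), against 15.1% and 20.1% of all tested genes. Of these 73, 12 (16.4%) were higher in the osteosarcomas than in bone marrow (median 0.42), near the 14.8% of all tested genes, and none was lower, against 13%. Of 16 import genes, 4 (25%) were lower and 1 (6.25%) higher in the leiomyosarcomas than in muscle (-0.37), against 15.1% and 20.1%.

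The pathways that feed electrons to the chain had larger median differences from muscle than the subunits. Of 14 tested citric acid cycle and pyruvate dehydrogenase genes, 11 were called lower and 1 higher in the leiomyosarcomas (median -2.16), the same numbers in the osteosarcomas (-1.61), and 13 lower and 1 higher in bone marrow (-2.31). The lower shares were 78.6%, 78.6% and 92.9%, against 15.1%, 14.5% and 19.7% of all tested genes. The higher share was 7.14% each time, against 20.1%, 18.5% and 20.3%. Cs, citrate synthase, read 11.31 and 10.64 in muscle and 8.49 to 8.94 in the leiomyosarcomas (-2.20 ± 0.37, adjusted p = 0.000537). Of 17 fatty acid oxidation genes, 16 were lower in the leiomyosarcomas, 14 in the osteosarcomas and 14 in bone marrow, with medians of -2.17, -1.81 and -1.77. These were 94.1%, 82.4% and 82.4%, against the same shares of all tested genes called lower. Cpt1b, the muscle form of the enzyme that admits fatty acids to mitochondria, differed most (-5.80 ± 0.51 in the leiomyosarcomas).

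A list of carriers that move ADP, ATP and phosphate also held genes of other kinds, among them Atpif1, Ckmt2, Ucp3 and Vdac1. Of its 9 tested genes, 5 were lower and 2 higher in the leiomyosarcomas than in muscle. These were 55.6% and 22.2%, against 15.1% and 20.1% of all tested genes. Slc25a5, a widely expressed ADP/ATP carrier, was at 11.68 and 11.41 in muscle, 12.75 to 13.12 in the leiomyosarcomas and 13.25 to 13.56 in the osteosarcomas. It was higher than in muscle by 1.35 ± 0.19 (adjusted p = 0.000151) in the leiomyosarcomas, by 1.90 ± 0.19 in the osteosarcomas and by 1.61 ± 0.22 in bone marrow, opposite to the subunits. The muscle carrier Slc25a4 was not tested. Atpif1, the inhibitor of ATP hydrolysis by the ATP synthase, was higher by 2.24 ± 0.20 in the leiomyosarcomas and by 2.31 ± 0.20 in the osteosarcomas. Ckmt2, the mitochondrial creatine kinase of striated muscle, was detected in both muscles and on no leiomyosarcoma. It was at least 393-fold higher in muscle, the bound being set by the lowest detected signal of each leiomyosarcoma array (adjusted p = 2.98e-05).

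Of 18 tested regulators of mitochondrial biogenesis, 9 were lower and 1 higher in the leiomyosarcomas than in muscle, 7 and 1 in the osteosarcomas, and 7 and 1 in bone marrow. The lower shares were 50%, 38.9% and 38.9%, against 15.1%, 14.5% and 19.7% of all tested genes. The higher share was 5.56% each time, against 20.1%, 18.5% and 20.3%. Ppargc1a, a coactivator of mitochondrial genes, read 9.13 and 8.24 in muscle and was not detected on any tumour or bone marrow array. It was at least 11.1-fold higher in muscle than in the leiomyosarcomas (adjusted p = 5.56e-07) and at least 11-fold higher than in the osteosarcomas (adjusted p = 6.21e-07). Its relative Ppargc1b read 8.17 and 9.04 in the muscles. The bone marrows had 6.35 and 6.70. It was at 5.49, 6.22, 5.45 and 5.42 in the leiomyosarcomas and 8.96, 7.90, 7.03 and 8.53 in the osteosarcomas. Every osteosarcoma was above every leiomyosarcoma and both bone marrows, by 2.46 ± 0.38 (adjusted p = 0.00188) and 1.58 ± 0.47 (adjusted p = 0.0196). Tfam, which packages mitochondrial DNA and starts its transcription, was lower in the leiomyosarcomas than in muscle by -1.24 ± 0.34 (adjusted p = 0.00978) and differed by 0.14 between the tumours.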

How the data were processed

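Gene expression was measured on 12 single-colour Illumina bead arrays, 1 per sample. RNA was extracted with Trizol and labelled as biotinylated cRNA, per the labels' protocols. The deposited table holds an intensity and a detection p-value per probe. The authors took a constant background off every intensity of an array, which leaves some values below 0. A second deposited table holds the same intensity without that subtraction. Scanner software, bead averaging and the way the p-value was computed are not given in the sources used here. Probes were named from the platform annotation, in which 34885 of 45281 probes have 1 symbol, 18 have several and 10378 are not listed. Symbols were updated through RefSeq for 34807 probes.

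In limma 3.58.1 (R 4.3.3), neqc (normexp with an offset of 16, negative controls inferred from the detection p-values, quantile normalization, log2) was applied, and probes detected (p under 0.05) on at least 2 of the 12 arrays were kept. Each gene was read from its kept probe of highest mean. A model with 4 group means was fitted to 12 arrays and 11754 genes (8 residual degrees of freedom, 3.634 prior), with Benjamini-Hochberg adjustment over all genes. The number of arrays limits the precision. The script was tested on simulated data. Alternatives were other scalings and backgrounds, detection filters, the mean over probes, no minimum fold, blocks for array background and replicate number, and each array left out. Array background was split as low or high from the values. All osteosarcomas were high and all normal tissues low, so only the leiomyosarcomas inform that block. Motif matching used exact letters, and several spellings were searched before the 4 given were settled on. The genes named were the anchors and largest changes fixed by rule, and others were chosen after their values were seen. Members and lists were chosen with earlier results of these data known.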

Additional observations from a re-analysis of the deposited data

Results flagged for a closer look

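In 134 groups of 4 tumours (66 genes and the subunit c ratio, in each tumour type), 12 held a sample whose gap to its nearest neighbour exceeded Dixon's 95% critical value for 4 samples. Chance flags about 1 in 20 such groups. Osteosarcoma 4 stood above the other 3 in Atp5b (15.68, the nearest at 15.33), Atp5md (6.79), Atp5o (13.54), Ndufa4 (12.80) and Uqcrc1 (11.43, the nearest at 10.79). Osteosarcoma 3 stood below the others in Cox5b (13.01). Leiomyosarcoma 1 stood below the others in Ndufa6 (11.08) and Ndufc1 (11.99), and leiomyosarcoma 2 was below in Cox7b (6.21) and above in Atp5md (6.37). Leiomyosarcoma 3 stood above in Ndufc2 (10.19) and leiomyosarcoma 4 above in Ndufv2 (11.43).

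The tumour-minus-normal difference was tested between the 2 tumour types, and it differed for 60 members, all lower in leiomyosarcoma minus muscle than in osteosarcoma minus bone marrow. The largest were Ndufb2 (-3.98), Ndufs3 (-3.48) and Ndufa5 (-3.20), each from limma's test of the difference. The normal tissues used on the 2 sides differ. By arithmetic the difference equals bone marrow minus muscle, less osteosarcoma minus leiomyosarcoma. The members' medians of these parts were -1.70 and 0.41, so the gap between the normal tissues was the larger part. The counts therefore do not describe the tumours apart from that gap.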

How the results depend on the processing

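No called value changed direction in any alternative. The counts of members lower than muscle ranged from 41 to 58 in the leiomyosarcomas, 29 to 56 in the osteosarcomas and 50 to 63 in bone marrow when 1 array was left out, the lowest of each without muscle 1. In the same runs the counts were 0 to 2 higher and 1 to 2 lower for leiomyosarcoma against bone marrow, 5 to 7 and 0 to 1 for osteosarcoma against bone marrow, 1 to 2 higher for osteosarcoma against leiomyosarcoma, and 52 to 62 for the difference of differences. The subunit c difference ranged from -1.21 to -0.90, with p = 0.0571 in each run when the two-sided exact permutation p is the doubled one-sided p, the smallest value it allows with 7 arrays. By the absolute difference the exact p was 0.0286 without any 1 leiomyosarcoma and 0.0571 without any 1 osteosarcoma. With no minimum fold, 5 members were higher and 5 lower for leiomyosarcoma against bone marrow, 16 higher for osteosarcoma against bone marrow and 9 higher for osteosarcoma against leiomyosarcoma. With median scaling in place of quantile these were 0 higher for leiomyosarcoma and 1 for osteosarcoma against bone marrow. Median scaling moved the all-gene median for leiomyosarcoma against muscle from 0.08 to -0.31 and its calls from 2358 higher and 1778 lower to 1792 and 2411 (osteosarcoma against muscle 2174 and 1710 to 1659 and 2393). It turned the members' median for leiomyosarcoma against bone marrow from 0.10 to -0.06, which relative to all genes was 0.10 and 0.17. With array background as a block, 0 were higher for leiomyosarcoma and 1 for osteosarcoma against bone marrow, and 1 for osteosarcoma against leiomyosarcoma, and 1105 genes were higher for osteosarcoma against bone marrow. Low-background arrays alone gave 0 for the first and high-background arrays alone gave 1 for the last, with 202 genes higher and 322 lower. Without background subtraction, 1 was lower for leiomyosarcoma against bone marrow, 0 lower for osteosarcoma against bone marrow and 0 higher for osteosarcoma against leiomyosarcoma, and calls over all genes, higher and lower, fell from 2358 and 1778 to 1518 and 1246 for leiomyosarcoma and from 2174 and 1710 to 1390 and 1156 for osteosarcoma against muscle, from 1788 and 1488 to 1153 and 942 for leiomyosarcoma and from 1745 and 1528 to 1131 and 998 for osteosarcoma against bone marrow, and from 389 and 510 to 214 and 296 between the tumours. In an alternative chosen after seeing the data, osteosarcoma 2 as the lone osteosarcoma, 4 were higher and 0 lower against bone marrow and 0 higher against leiomyosarcoma, where 335 genes were lower. Genes detected on all 12 arrays (6076) gave fewer calls over all genes by construction. These were 1225 and 1032 for leiomyosarcoma, 1124 and 962 for osteosarcoma and 1260 and 1253 for bone marrow against muscle, 813 and 706 for leiomyosarcoma and 790 and 732 for osteosarcoma against bone marrow, 145 and 232 between the tumours and 1301 and 1255 for the difference of differences. The replicate numbers are a running order given here, and same-numbered arrays shared little deviation (correlations -0.079 to 0.082). Muscle 1 and bone marrow 2, which share an animal code, have different numbers. Neither this check nor the replicate block covers that pair. With the replicate number as a block, 57 members were lower in the leiomyosarcomas than in muscle, against 1684 of all 11754 genes. In the same run 2 members were higher for leiomyosarcoma against bone marrow, against 1657 genes. Probes near background limit Ndufb11, Uqcrq and Atp5md.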
